A study of Triticum aestivum with 12 samples.

Results

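Root RNA of 2 winter wheat varieties, Xindong20 and Xindong23, was compared at conventional phosphorus (CP) under osmotic drought. The comparison used 6 of the 12 arrays in the series, assigned by their variety and phosphorus labels: 3 from Xindong20 and 3 from Xindong23, all at CP. This comparison was singled out with earlier results known, among them that these arrays have the lowest spread between replicates. Seedlings of both varieties had grown for 14 days in Hoagland solution with 1 mmol/L phosphorus, and then for 7 days in the same solution with 15% PEG-6000, a polymer that holds water back from roots. The solution was renewed every 3 days, light lasted 18 h, and the cabinets were kept at 25 °C by day and 20 °C by night. The other 6 arrays came from the same varieties at 0.05 mmol/L phosphorus (LP), with potassium chloride in place of part of the phosphate salt and the same drought. Every plant was under drought, so a difference between the varieties is a difference among drought-treated roots and not a response to drought. The series design calls the 3 arrays of a group biological replicates, and how many plants went into each is not given in the sources used here.

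Roots that lose water stop dividing and elongating cells, accumulate osmolytes and protective proteins, and detoxify peroxide. Late embryogenesis abundant (LEA) proteins and dehydrins shield proteins and membranes in dry cells. Histone genes are transcribed mostly while DNA is being copied, and tubulins and profilin build and regulate the cytoskeleton of dividing and elongating cells. Wheat is hexaploid, so most genes exist as near-identical copies that 1 probe set can bind together.

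Each array reported 61179 wheat probe sets as intensities on a log2 scale, after 111 control probe sets were left out. Array medians lay between 4.237 and 4.329. A principal component analysis of the 6 arrays put the varieties apart on its leading axis (61.4% of the variance). Correlations over all probe sets were 0.98 to 0.992 within a variety and 0.953 to 0.973 between varieties. The median SD among replicates was 0.181 in Xindong20 and 0.133 in Xindong23 at CP, against 0.335 and 0.262 at LP. In the tissue check, the 3 probe sets of DMAS1, an enzyme of the iron-chelator pathway of grass roots, lay at 6.26 to 9.82 on these 6 arrays. The 6 probe sets of green-tissue genes other than rbcl lay at 1.98 to 4.72, and none had a mean above the array medians in both varieties. Of 17 grain storage protein probe sets, 6 were above the array medians in both varieties, with levels up to 9.8. In whole roots, fewer cells of a type and less RNA per cell cannot be told apart. Amount of transcript and match of a variety's own sequence to the probes cannot be told apart either.

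The varieties differed at 8733 probe sets, 14.3% of those tested, by limma's moderated test with a Benjamini-Hochberg adjusted p under 0.05. Xindong20 was higher at 3461 of them (5.66%) and lower at 5272 (8.62%). Thus 39.6% of the calls were higher in Xindong20, and 27.3% were when each array was centred on its median. All called probe sets had CP arrays that did not overlap between varieties, and so did 24064 probe sets in all, or 39.3% of those tested. Most calls were small: 6190 were under 2-fold, 1968 were from 2-fold to under 4-fold, 483 were from 4-fold to under 16-fold and 92 were 16-fold or more. The count rests on the spread of these 6 arrays. It was 1438 when all 12 arrays shared 1 estimate of the spread, 6221 when the LP3 arrays of both varieties were left out of that joint fit, 5340 without Xindong20 CP2, 4334 without Xindong23 CP1, 1937 without Xindong23 CP2 and 2885 without Xindong23 CP3.

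The direction of the differences varied with level. Among the dimmest 10% of probe sets, with mean levels of 1.37 to 2.12, the median difference (Xindong20 minus Xindong23) was 0.05 on the log2 scale and 0.539% were called. Between 6.9 and 8.36 the median difference was -0.22, 28.4% were called, and 1360 calls were lower in Xindong20 against 379 higher. The median difference was 0.14 between 3.1 and 4.3 and -0.11 in the brightest 10%. Over all probe sets the median was 0.06. After quantile normalization of the 6 arrays the median difference between 6.9 and 8.36 was -0.04. The SD of values on an array moved with these shifts, at 2.37 to 2.4 in Xindong20 and 2.46 to 2.47 in Xindong23, and its part in them was not tested.

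**Figure D1:**
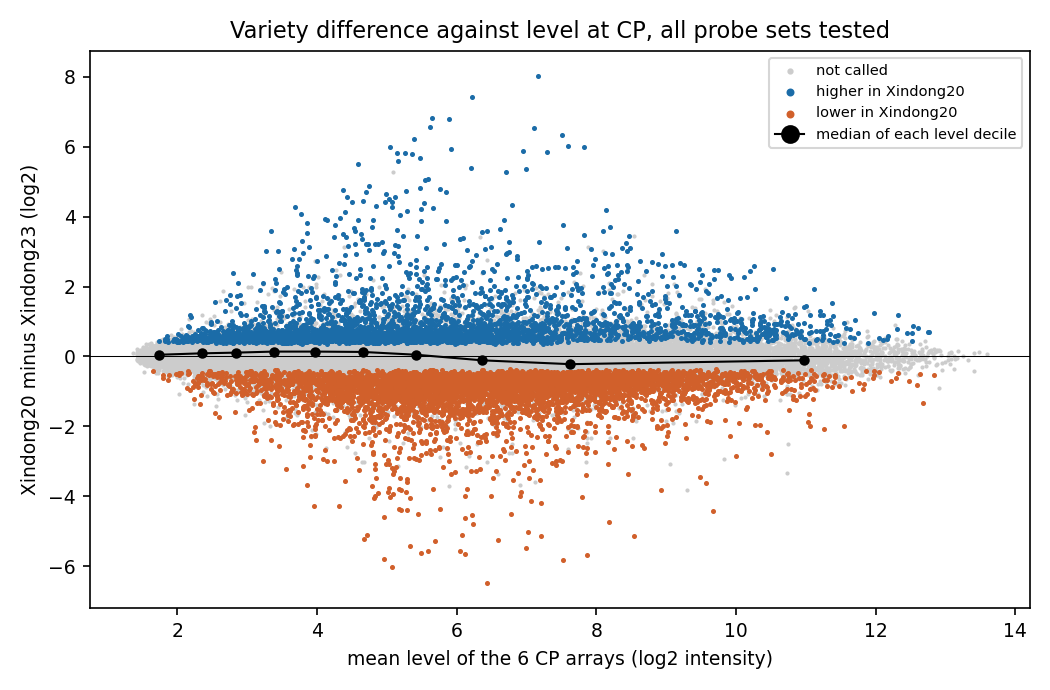
Difference between the varieties (Xindong20 minus Xindong23, log2) against the mean level of the 6 CP arrays (log2 intensity), 1 point for each of the 61179 probe sets, coloured by call. The black line joins the median difference of each 10% of the probe sets by level, drawn at the middle of its level range. The line starts at 0.05 in the dimmest 10% and reaches 0.14 between 3.1 and 4.3. It falls to -0.22 between 6.9 and 8.36 and ends at -0.11 in the brightest 10%.

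Only 1273 probe sets, for 771 genes, were paired with 1 gene by the platform annotation, and 102 of these genes, on 200 probe sets, had a symbol or description that says what they are. The results on named genes therefore sample a small part of the array. Of the 102 genes, 23 had a called probe set: 12 were higher and 11 lower in Xindong20. By probe set the share was 14.5%, beside 14.3% of all probe sets, so named genes were called about as often as the rest. With all 12 arrays in the fit, whose spread is then estimated from the more variable LP arrays as well, 1 of the 23 genes (rbcl) was still called. Without the LP3 arrays of both varieties, the same joint fit called 10 of the 23. None of the 23 differences changed sign under any alternative tried, but most alternatives could not have changed a sign. Settings that change only the estimate of the spread keep the difference itself. Leaving out or weighting arrays cannot reverse groups that do not overlap. Only the normalizations and the hybridisation controls as a covariate could have done so.

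Of 6 histone and chromatin genes, 5 had a called probe set that was lower in Xindong20, and none had one that was higher. These were wcH2B-8, H2A-9, H2A-2, H2A-3 and Hmgb3. The median difference over their 20 probe sets was -0.98, against 0.06 over all probe sets. By probe set, 6 of 20 were called, all lower in Xindong20, where 14.3% of all probe sets were called and 8.62% were called lower. Of the 20, 5 had a positive difference, where 57.9% of all probe sets did. A gene was counted on any called probe set, so genes with many probe sets are more easily counted. Under quantile normalization 2 of the genes were called, with a median of -0.84.

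The histone H2B gene wcH2B-8 packages DNA as a core nucleosome protein. On its most clearly changed probe set the Xindong20 arrays read 3.28, 3.55 and 2.81 and the Xindong23 arrays 6.24, 5.69 and 7.4. The varieties did not overlap: Xindong20 stayed below the array medians and Xindong23 was well above them. The difference was -3.23 ± 0.42 (SE, n = 3 and 3), a level at least 9.37-fold lower in Xindong20, with an adjusted p of 0.00524 by limma. All 7 probe sets of wcH2B-8 had a negative difference, from -0.80 to -3.23, and 2 were called. Leaving out any single array kept the call on this probe set.

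The H2A genes encode another core histone, and their probe sets disagreed more. For H2A-2 the levels were 3.4, 2.91 and 3.37 in Xindong20 and 4.34, 4.78 and 5.47 in Xindong23, which do not overlap. The difference was -1.63 ± 0.29 (SE), with a limma adjusted p of 0.0145. For H2A-3 the called probe set read 7.51, 6.64 and 7.03 in Xindong20 and 7.91, 8.21 and 8.76 in Xindong23, again without overlap. Its difference was -1.23 ± 0.28 (limma adjusted p 0.0305), while the gene's other probe set gave -0.44 and was not called. H2A-9 had 6 probe sets, and only 1 was called. It read 6.26, 4.8 and 5.03 in Xindong20 and 6.89, 6.62 and 7.54 in Xindong23, a difference of -1.65 ± 0.4 (limma adjusted p 0.0373). Of its other 5 probe sets, 2 were negative (-1.27 and -1.85) and 3 positive (0.96, 0.87 and 0.50), none of them called, so no direction holds for the gene as a whole. Probe sets of such histone copies bind several transcripts, and which copy differed is uncertain.

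Hmgb3, a high mobility group protein that bends DNA in chromatin, was bright in both varieties. Levels were 10.49, 9.68 and 9.75 in Xindong20 and 10.68, 10.86 and 10.87 in Xindong23, close to each other at the edge but not overlapping. The difference was -0.83 ± 0.22 (limma adjusted p 0.0462), and a second probe set gave -0.37 and was not called (0.295). The sixth gene, the H2B gene wcH2B-6, was not called on either probe set, with differences of 0.31 and 0.01. Several of these calls were lost when 1 particular array was left out. H2A-9 and Hmgb3 were lost without any of Xindong20 CP2, Xindong20 CP3, Xindong23 CP1, Xindong23 CP2 or Xindong23 CP3, with differences of -1.85 to -1.37 and of -0.89 to -0.68. H2A-3 was lost without Xindong20 CP2, Xindong20 CP3, Xindong23 CP2 or Xindong23 CP3 (-1.27 to -1), and H2A-2 without Xindong23 CP2 (-1.67).

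Among cytoskeleton genes, 1 tubulin was lower and the profilin gene was higher in Xindong20. The list held 7 genes, and the median difference over its 12 probe sets was -0.14. By probe set 1 was called higher and 3 lower, where 14.3% of all probe sets were called in either direction. Tubb5 encodes a beta-tubulin, a building block of microtubules. Xindong20 arrays read 8.92, 8.13 and 8.97 and Xindong23 arrays 9.84, 9.89 and 10.16. Every Xindong23 array lay above every Xindong20 array, and the difference was -1.29 ± 0.23 (limma adjusted p 0.0162). All 4 probe sets of Tubb5 gave similar negative differences, from -1.08 to -1.29, and 3 were called. The other tubulin genes did not pass: tubb2 differed by -0.86, tubb1 by -0.27, tubb3 by -0.01 and Tubb4 by 0.09, and the alpha-tubulin gene TUBA by 0.22 and 0.08 on its probe sets. The Tubb5 call was lost without Xindong23 CP2 (-1.33) or Xindong23 CP3 (-1.19).

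PRO1 encodes profilin, which binds actin monomers and feeds filament growth. Its called probe set read 10.61, 10.73 and 10.66 in Xindong20 and 9.63, 9.29 and 9.28 in Xindong23. The Xindong20 arrays were nearly equal and all above Xindong23, with a difference of 1.27 ± 0.13, or 2.41-fold, and a limma adjusted p of 0.00208. The gene's other, brighter probe set differed by 0.09 and was not called.

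Of 5 LEA and dehydrin genes, 2 were higher in Xindong20, LEA1 and Rab15, and none was lower. The median difference of the 10 probe sets was 0.07, close to the 0.06 of all probe sets. Of the 10 probe sets 3 were called, beside 14.3% of all probe sets. LEA1 had the largest positive difference among the named genes that were called. It read 9.24, 8.95 and 9.11 in Xindong20 and 6.93, 8.18 and 6.21 in Xindong23. The Xindong20 arrays agreed closely, whereas Xindong23 CP2 sat nearer to them than its own replicates. The difference was 1.99 ± 0.44, or 3.98-fold, with a limma adjusted p of 0.0282. Rab15, a dehydrin induced by abscisic acid, read 8.46, 9.05 and 8.64 in Xindong20 and 7.84, 8.14 and 7.46 in Xindong23. The groups did not overlap, and the difference was 0.90 ± 0.22 (limma adjusted p 0.0355). A second probe set of Rab15 gave 0.87 and was called, and the third gave 0.78 and was not. The other members, COR410, EM and EMH2, lay at differences of -0.18 to 0.10 and were mostly dim. LEA1 lost its call without any array other than Xindong23 CP2 (1.54 to 2.07), and Rab15 without any array other than Xindong20 CP1 (0.73 to 1.07).

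Of 8 peroxide and redox genes, 2 were higher in Xindong20 and none was lower. By probe set 2 of 16 were called, beside 14.3% of all probe sets. The median difference was 0.27, where the median of all probe sets was 0.06. Of the 16 probe sets 13 were positive, where 57.9% of all probe sets were. PER1, whose annotation names a peroxidase, an enzyme class that spends hydrogen peroxide on phenolic substrates, read 5.77, 5.37 and 4.45 in Xindong20 and 3.83, 3.67 and 3.8 in Xindong23. Xindong23 was below the array medians throughout and Xindong20 above, and the difference was 1.43 ± 0.31, at least 2.7-fold (limma adjusted p 0.0262). Its other probe set gave 0.25 and was not called. For Prx1 the levels were 3.94, 4.11 and 3.81 against 3.46, 3.15 and 2.97, below the array medians in both varieties. No fold is given for so dim a signal, and the difference was 0.76 ± 0.16 (limma adjusted p 0.0233). The 4 probe sets of Prx1 ran from -0.04 to 0.76, with a median of 0.22, and only this one was called. CAT1, a catalase that breaks down hydrogen peroxide, differed by 0.38 (limma adjusted p 0.0687), and GSTZ1, a glutathione transferase, by 0.46 (0.131). The PER1 call was lost without Xindong20 CP2, Xindong23 CP1, Xindong23 CP2 or Xindong23 CP3 (1.34 to 1.46), and the Prx1 call without Xindong20 CP2, Xindong23 CP2 or Xindong23 CP3 (0.65 to 0.73).

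Of 9 genes for serpins and other inhibitors of proteases, amylases or xylanases, 3 were higher in Xindong20 and none was lower. By probe set 3 of 13 were called, beside 14.3% of all probe sets. All 13 differences were positive, some as small as 0.04, where 57.9% of all probe sets were positive; their median was 0.22, which became 0.13 after quantile normalization. XIP-I, a xylanase inhibitor that acts against fungal enzymes, was among the brightest named genes. Its levels were 11.82, 12.53 and 11.72 in Xindong20 and 11.29, 11.18 and 10.73 in Xindong23, without overlap. The difference was 0.95 ± 0.25, or 1.94-fold (limma adjusted p 0.0436), and a second probe set gave 0.98 and just missed the threshold (0.0531). The chymotrypsin inhibitor gene wci read 6.6, 6.26 and 6.29 against 5.85, 5.69 and 5.83, a difference of 0.59 ± 0.13 (limma adjusted p 0.0276). The third call was a gene annotated as ATI, an amylase and trypsin inhibitor, on a probe set below the array medians in both varieties (0.59, limma adjusted p 0.0394). XIP-I lost its call without any 1 of the 6 arrays (0.70 to 1.11), wci without Xindong23 CP1, CP2 or CP3 (0.54 to 0.62), and the ATI gene without any array other than Xindong20 CP2 (0.50 to 0.60).

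**Figure D2:**
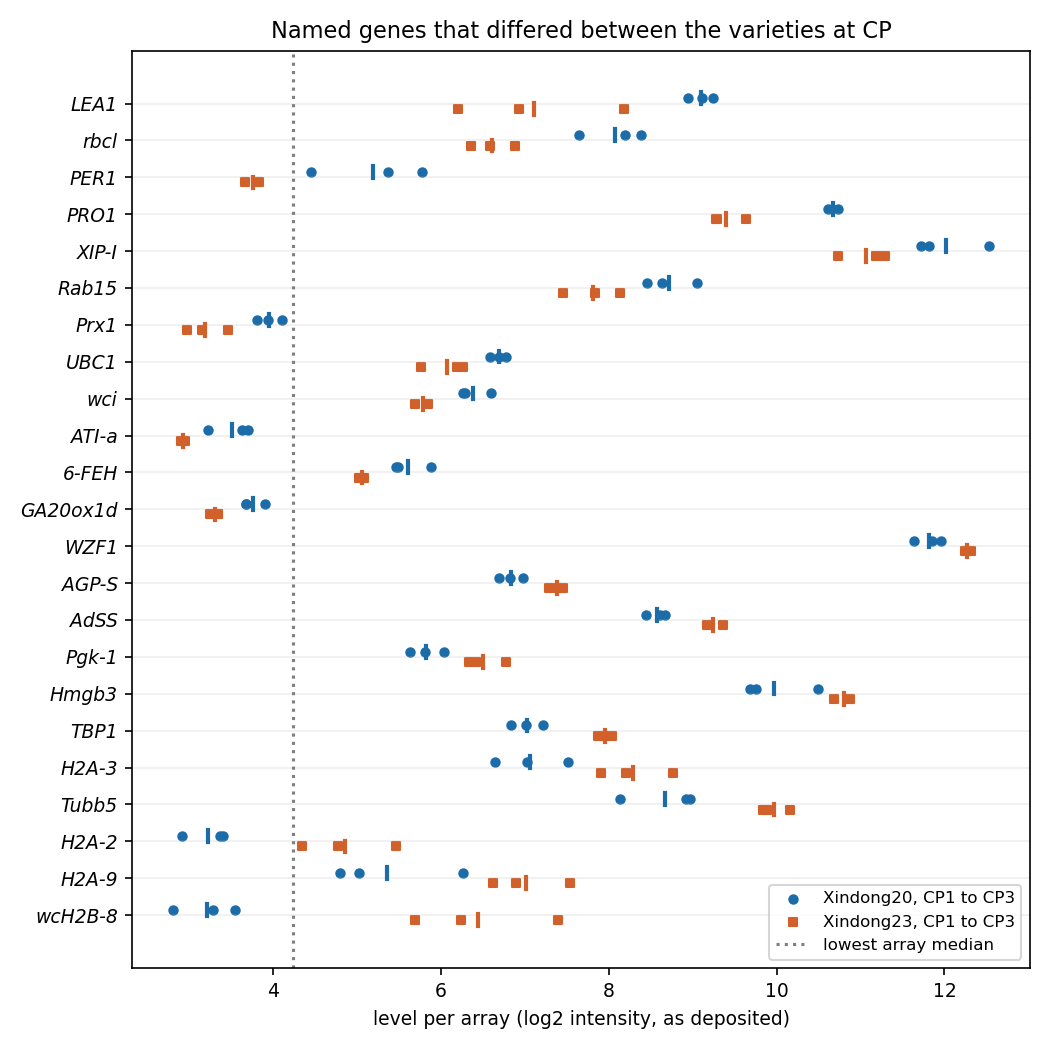
Level of each named gene with a call on every CP array (log2 intensity, x axis), 1 gene per line, sorted by difference; circles are Xindong20, squares Xindong23, short bars the means of 3 arrays, and the dotted line the lowest array median (4.237). The varieties do not overlap for any gene shown, as for every called probe set. The difference between means is largest for wcH2B-8 at the bottom (-3.23) and LEA1 at the top (1.99).

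Carbohydrate genes moved both ways. Of 12 genes, 1 was higher and 2 were lower in Xindong20, with a median difference of 0. By probe set 1 of 17 was called higher and 2 lower, where 14.3% of all probe sets were called in either direction. AGP-S, the small subunit of ADP-glucose pyrophosphorylase, which makes the sugar donor for starch, read 6.82, 6.69 and 6.98 in Xindong20 and 7.29, 7.4 and 7.45 in Xindong23. Its values did not overlap, and the difference was -0.55 ± 0.12 (limma adjusted p 0.0274). Pgk-1, a phosphoglycerate kinase, read 5.63, 5.81 and 6.04 against 6.77, 6.42 and 6.33, a difference of -0.68 ± 0.16 (limma adjusted p 0.036). The gene 6-FEH, a fructan exohydrolase that releases fructose from stored fructan, was slightly higher in Xindong20, at 5.88, 5.49 and 5.46 against 5.09, 5.03 and 5.06. The difference was 0.55 ± 0.14 (limma adjusted p 0.0403), while its other probe sets gave 0.00 and -0.25. The related gene 1-FEH was bright and differed by 0.04. AGP-S lost its call without Xindong20 CP2, Xindong23 CP1, CP2 or CP3 (-0.59 to -0.48), Pgk-1 without any array other than Xindong20 CP3 (-0.76 to -0.54), and 6-FEH without any other than Xindong20 CP1 (0.54 to 0.63).

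The remaining lower calls were in transcription and nucleotide synthesis. TBP1, the TATA-binding protein that seats RNA polymerase on promoters, read 7.02, 6.84 and 7.22 in Xindong20 and 7.96, 8.04 and 7.87 in Xindong23. These groups were tight and well apart, and the difference was -0.93 ± 0.13, or 1.91-fold (limma adjusted p 0.00707). AdSS, adenylosuccinate synthetase of AMP synthesis, read 8.67, 8.44 and 8.61 against 9.18, 9.36 and 9.17. It differed by -0.66 ± 0.12 (limma adjusted p 0.0151). WZF1, a zinc finger protein, was very bright in both varieties and differed by only -0.45 ± 0.12 (limma adjusted p 0.046). Without Xindong23 CP2 the AdSS call was lost (-0.60), and the WZF1 call was lost without any 1 of the 6 arrays (-0.53 to -0.37).

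The remaining higher calls were in 3 unrelated lists. One probe set of rbcl, the plastid gene for the large subunit of Rubisco, read 7.65, 8.39 and 8.19 in Xindong20 and 6.88, 6.58 and 6.36 in Xindong23. The difference was 1.47 ± 0.22, or 2.76-fold (limma adjusted p 0.00899). The gene had 28 probe sets, of which 3 (10.7%, beside 14.3% of all probe sets) were called, all higher in Xindong20. Their median difference was 0.06, as over all probe sets, 11 of the 28 were negative, and the brightest differed by -0.17. Levels were above the array medians in both varieties on 5 of them. None of the other 4 photosynthesis genes was called. UBC1, a ubiquitin-conjugating enzyme of protein turnover, differed by 0.62 ± 0.15 on 1 probe set (limma adjusted p 0.0401). Its 3 probe sets ran from -0.14 to 0.62, with a median of 0.29, and only this one was called. GA20ox1d, an oxidase of gibberellin synthesis, differed by 0.44 ± 0.11 (limma adjusted p 0.0447) at levels below the array medians in both varieties. Its other, brighter probe set gave 0.29 and was not called (limma adjusted p 0.137). Both calls were lost without any 1 of the 6 arrays (0.46 to 0.71 for UBC1 and 0.36 to 0.48 for GA20ox1d).

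In several lists no gene passed. None of 8 ribosome and translation genes was called (median difference -0.04), none of 8 grain storage protein genes (0.12) and none of 9 defence genes (0.21). These lists held 10, 17 and 13 probe sets, where 14.3% of all probe sets were called. With so few probe sets, the absence of calls says little about a list. PR5, a thaumatin-like defence protein, had the widest difference of any defence gene, 2.76, but also a wide spread. It read 5.58, 8.66 and 9.21 in Xindong20 and 5.08, 5.56 and 4.55 in Xindong23. The lowest Xindong20 array barely cleared the highest Xindong23 array, and the limma adjusted p was 0.0742. Of the methylation enzymes, PEAMT1, which makes choline for glycine betaine, differed by -1.81 (limma adjusted p 0.0619), SAHH by 0.28 (0.139) and PCM by 0.50 (0.0799). The lectin gene WGA2 differed by 0.31 (0.144).

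Of the 92 probe sets called at 16-fold or more, 91 had no gene in the annotation. Xindong20 was higher at 52 and lower at 40 of the 92, and they belonged to 85 transcript clusters. The brighter variety had a mean level of 5.82 to 11.88 on these probe sets, with a median of 8.14. In 73 of the 92 the dimmer variety was below the array medians, so the size is a lower bound. These are therefore probe sets with a clear signal in 1 variety and mostly little in the other.

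The widest positive difference was at Ta_5824_2_S1_at, which read 10.64, 11.51 and 11.37 in Xindong20 and 3.16, 2.84 and 3.45 in Xindong23. The difference was 8.02 ± 0.26, at least 260-fold (limma adjusted p 8.85e-06). Next came Ta_3242_3_A1_at, at 10.41, 9.43 and 9.98 against 2.43, 2.35 and 2.76, a difference of 7.42 ± 0.25 and at least 172-fold (limma adjusted p 1.05e-05). Both were bright in Xindong20 alone.

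In the other direction, Ta_1151_1_S1_at read 2.83, 3.78 and 2.98 in Xindong20 and 10.33, 9.25 and 9.42 in Xindong23. The difference was -6.47 ± 0.34, at least 88.5-fold (limma adjusted p 8.03e-05). Ta_11179_1_A1_at read 1.99, 1.96 and 2.22 against 7.78, 8.31 and 8.18, a difference of -6.03 ± 0.16, at least 65.5-fold (limma adjusted p 4.97e-06). These were bright in Xindong23 alone. The 4 probe sets were called under all alternatives tried.

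Probe sets of 1 transcript cluster, as the probe set IDs group them, mostly moved together. Of 8842 clusters with 2 or more probe sets, 896 had 2 or more called, and in 840 of these (93.8%) all calls were in 1 direction. Among clusters with 2 or more probe sets called at 4-fold or more, 45 of 46 went 1 way. Probe sets of a cluster can share probes or transcript sequence and are not independent. Calls were more frequent among probe sets whose ID endings mark shared probes (19.1% for _a_at, 18.5% for _s_at and 16.4% for _x_at) than among the plain ones (13.4%).

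The LP arrays, which share no array with the CP comparison, were used to see which differences were present at both phosphorus levels. Signals of RNA integrity or labelling, given with the array controls below, ranged more widely at LP, and their part in these shares was not tested. Of all 8733 CP calls, 49% had the same sign at LP, against 47.3% of all probe sets, a share near the background. The share depended on size. It was 42.3% for calls under 2-fold, 60.7% from 2-fold to under 4-fold, 78.7% from 4-fold to under 16-fold and 97.8% (90 of 92) at 16-fold or more. Of those 92, 73 (79.3%) also had LP arrays that did not overlap in the same direction, where 4.43% of all probe sets did. Over all probe sets, 9.48% had LP arrays that did not overlap in either direction, 4.07% with Xindong20 higher and 5.42% with it lower. The median size of the 92 was 4.8 at CP and 4.15, in the CP direction, at LP. Without the LP3 arrays of both varieties the share of the same sign was still 97.8% at 16-fold or more and was 47.9% over all calls.

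**Figure D3:**
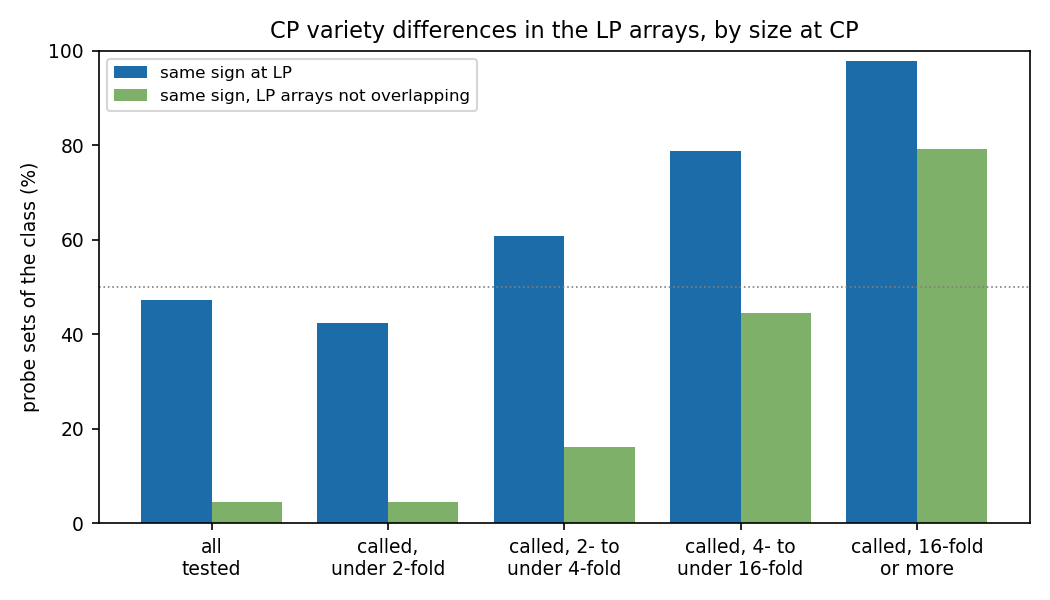
Share of probe sets (%, y axis) whose variety difference at LP had the same sign as at CP (blue) and whose 3 and 3 LP arrays also did not overlap (green), for all 61179 tested and for the CP calls by size. The blue share runs from 42.3% under 2-fold to 97.8% at 16-fold or more; the dotted line marks 50%.

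**Figure D4:**
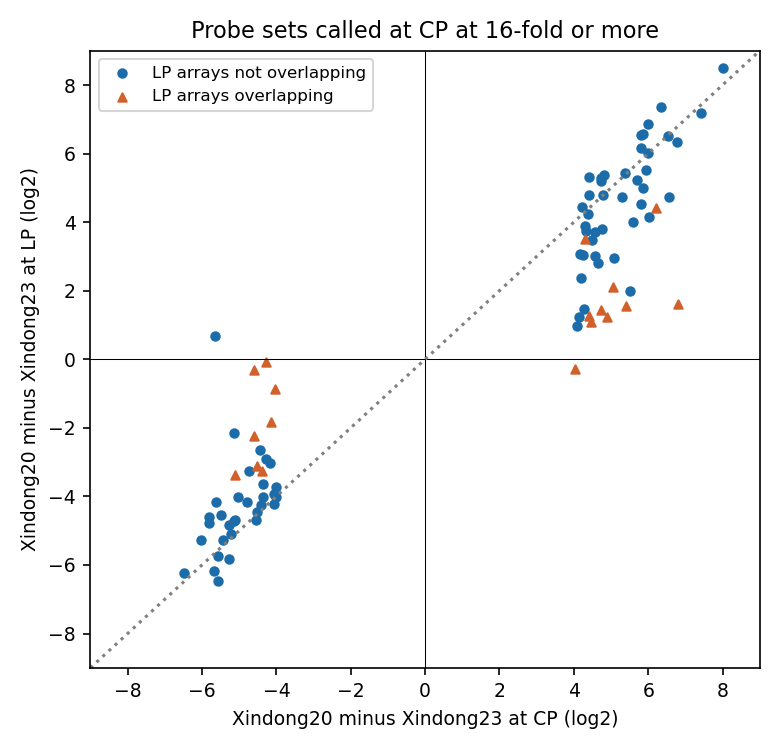
Variety difference at LP against that at CP (both Xindong20 minus Xindong23, log2) for the 92 probe sets called at CP at 16-fold or more; circles have LP arrays that do not overlap, triangles overlap, and the dotted line marks equal differences. Points have the same sign on both axes except for 2, and most lie near the line.

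Of the 92 probe sets, 73 had an LP difference in the CP direction of at least 50% of their CP difference on the log2 scale, and 19 did not. Among the 19, some means hide a split between replicates. At LP, Xindong20 read 7.51, 1.88 and 2.12 at Ta_8835_1_A1_at and 9.13, 2.92 and 3.06 at Ta_8878_1_S1_at. At Ta_7034_1_S1_at its LP replicates were alike (4.64, 5.26 and 5.08). A split also occurred at CP, where Xindong20 read 7.96, 2.94 and 2.62 at TaAffx_38635_1_A1_at, among the 92. For the 4 probe sets given above, the LP difference was 8.49 for Ta_5824_2_S1_at, 7.17 for Ta_3242_3_A1_at, -6.23 for Ta_1151_1_S1_at and -5.27 for Ta_11179_1_A1_at. Tested alone, the LP arrays gave 127 calls, 0.208% of probe sets. Of these, 113 were called in the same direction at CP, which is 89% of the LP calls and 1.29% of the CP calls. Without the LP3 arrays the LP calls numbered 76, of which 63 were called in the same direction at CP.

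Of the 12 named genes called higher, 6 had the same sign at LP, and of the 11 called lower, 8 did. That is 60.9% of the 23, beside 49% of all CP calls. Without the LP3 arrays of both varieties these counts were 4 and 8, beside 47.9% of all CP calls. None of the 23 had LP arrays that separated in the CP direction, and none was called at LP. None passed the test of a variety difference that depends on phosphorus (lowest adjusted p 0.0871 by limma). On the probe sets given above, the LP differences of the chromatin and tubulin genes were negative but rested partly on the LP3 arrays: the value was -1.87 for wcH2B-8, -0.98 for H2A-2, -0.93 for H2A-9, -0.34 for H2A-3, -0.64 for Hmgb3 and -0.47 for Tubb5. Without the LP3 arrays, wcH2B-8 was at -0.25, Hmgb3 at -0.15 and Tubb5 at -0.12, while H2A-2 was at -0.75, H2A-9 at -0.92 and H2A-3 at -0.31. The 3 H2A-9 probe sets that were positive at CP were positive at LP too, at 3.62, 4.03 and 1.84. At 3.62 and 4.03 every Xindong20 LP array lay above every Xindong23 LP array, so at LP too no direction holds for H2A-9 as a whole. For wcH2B-8, Xindong20 read 9.28, 6.08 and 2.83 at LP and Xindong23 read 6.13, 9.73 and 7.93, so the varieties overlapped widely. LEA1 (1.11, and 1.35 without LP3) and Rab15 (1.01 and 1.29) were positive at LP. PRO1 was at -0.41 with the LP3 arrays and 0.10 without them, as Xindong20 LP3 read 6.98 against 10.82 and 11.12 in its replicates. The rbcl probe set was negative either way (-0.55 and -0.29). PR5 had an LP difference of 2.82 (3.03 without LP3), with LP arrays that did not overlap.

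Array controls were compared because RNA quality can move with the groups. The poly-A RNA spikes read 7.13 ± 0.57 (SD, n = 3) in Xindong20 and 6.95 ± 0.26 in Xindong23 (exact two-sided permutation p 0.7). On LP arrays they read 3.74 to 6.22, below every CP array. Hybridisation controls read 10.96 ± 0.29 and 10.69 ± 0.11 (exact permutation p 0.2, adjusted 0.3 over 6 measures). The ubiquitin 3' minus 5' signal, a measure of RNA integrity or labelling length, was -0.54, -0.41 and -0.54 in Xindong20 and -0.34, -0.29 and -0.19 in Xindong23, without overlap. Its exact permutation p was 0.1, the smallest that 3 against 3 arrays can give, and 0.2 after adjustment. On LP arrays the ubiquitin signal ranged from -0.88 to 2.84. The G-6-PDH 3' minus 5' signal ranged from 2.79 to 6.86 on LP arrays and from 3.81 to 4.68 on CP arrays. The part of these measures in the variety calls, and in the LP differences, was not tested.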

How the data were processed

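RNA from wheat roots was hybridised to 12 Affymetrix wheat arrays, using 100 ng of total RNA each per the labels' protocols. The authors deposited 1 table of normalized values, treated here as log2 intensities because of their range; the log base is not given in the sources used here. Affymetrix Expression Console 1.4.1 and RMA are the tools listed per the submitters' processing notes, which assign them no steps. RMA sets arrays to a common distribution, which removes a change shared by most transcripts.

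Groups came from variety and phosphorus labels. With limma 3.58.1 in R 4.3.3, the 6 CP arrays were fitted with 1 mean per group (residual degrees of freedom 4), and p-values were adjusted by Benjamini-Hochberg over 61179 probe sets with no filter. Calls were made at an adjusted p under 0.05. On simulated data the fit recovered 177 of 200 probe sets changed by known amounts. These changes were all 4-fold or more, on probe sets above the median level, with independent normal noise. The recovery therefore does not cover smaller or dimmer calls. P-values measure the spread between these arrays, whose number limits the precision. The LP arrays were fitted alone, and the dependence on phosphorus was an interaction in a fit of all 12. "At least" marks a fold whose dimmer variety lay below the array medians; detection calls were not used here.

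Gene names came from the platform annotation, with 770 of 771 genes matched to RefSeq (IWGSC CS RefSeq v2.1). The text names called genes with an informative name, up to 14 per direction by difference, 1 probe set per gene (smallest p), genes described in earlier work on these data, and up to 2 unannotated probe sets per direction. PR5, PEAMT1, other members of each list, and the locus-only genes of the closing section fall outside that rule and were chosen after their values were seen. The comparison, the members and the lists were chosen with earlier results of these data known. A first set of 31 name patterns found 5 or more genes for only 4, so the 102 named genes were sorted by hand into 14 lists after their values were seen; no list is independent evidence of a direction. Other settings tried were the samples in the fit, normalization, the variance model, probe set filters, a replicate block and leaving out each array. Cyclic loess and the hybridisation controls as a covariate were added after seeing the data.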

Additional observations from a re-analysis of the deposited data

Results flagged for a closer look

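The variety difference itself differed between CP and LP at 81 probe sets (0.132%) in the interaction test of limma on all 12 arrays, with an adjusted p under 0.05. In 69 of them Xindong20 minus Xindong23 was lower at CP than at LP, and in 12 it was higher; interactions ranged from -6.32 to 4.86 on the log2 scale. Of the 81, 65 were also called at CP, where 14.3% of all probe sets were, and 3 were among the 92 called at 16-fold or more. The interaction contains the CP difference from the same CP arrays, so an overlap with the CP calls is partly built in. None of the 81 belongs to a named gene with a CP call. Without the LP3 arrays of both varieties, 571 probe sets passed, 77 of the 81 among them. Poly-A spike levels and the range of the 3' minus 5' signals also differed between CP and LP arrays, and their part in these interactions was not tested.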

How the results depend on the processing

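The 8733 CP calls became 1438 with all 12 arrays in the fit (all of them among the 8733), 6221 in that fit without the LP3 arrays, 3890 with a replicate block (1225 higher, 2665 lower), 708 when tested against a 1.5-fold difference, 3935 with the hybridisation controls as a covariate, and 1937 to 8203 with 1 array left out. Quantile normalization gave 7607 calls, 46.4% of them higher in Xindong20, median centring 8681, cyclic loess 7665, and array weights 11641. Deviations of same-numbered replicates correlated at -0.21, -0.11 and -0.08. Deviations from the mean of so few arrays depend on each other, so these values cannot decide whether same-numbered arrays were handled together. Of the 23 named genes with a call, 15 remained called under quantile normalization, where the histone list fell to 2, and 13 lost their call under the replicate block. The share of calls with the same sign at LP was 47.9% without the LP3 arrays and ran from 42.3% to 65.7% with 1 array left out; the highest was without Xindong23 CP2 (65.7%) and the lowest without Xindong20 LP2 (42.3%). Where a result moved, the cause was not tested, except that fits with fewer arrays have fewer degrees of freedom. Most transcripts stay unnamed, array controls cannot reach p under 0.05 with 3 against 3 arrays, and dim probe sets give bounds only.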

Other observations

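Genes that the annotation knows only by a locus number were called at CP about as often as the rest: 171 of their 1073 probe sets passed (15.9%, beside 14.3% of all probe sets), 71 higher and 100 lower in Xindong20, and 53 of these by 2-fold or more (20 higher, 33 lower). The widest was LOC543418, at 8.05 ± 0.2 (SD, n = 3) in Xindong20 and 2.05 ± 0.29 in Xindong23, a difference of 6, at least 63.9-fold (limma adjusted p 6.78e-06). The LP difference was 6.87, without overlap, and a second, brighter probe set of the gene differed by 1.06 at CP (limma adjusted p 0.0155). LOC543416 was 7.36-fold higher in Xindong20 at CP (8.31 ± 0.84 against 5.43 ± 0.47, limma adjusted p 0.0081) and LOC543368 was 5.34-fold higher (7.31 ± 0.6 against 4.89 ± 0.74, limma adjusted p 0.0139). For these the LP difference had the opposite sign, at -1.11 and -1.14, and the LP arrays of LOC543368 did not overlap. LOC100049056 was 4.91-fold lower in Xindong20 (6 ± 0.57 against 8.29 ± 0.25, limma adjusted p 0.00451), with an LP difference of 0.27.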
